A study of Homo sapiens with 2 samples.

Results

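The expression of 10 genes whose promoters are often methylated in Barrett's esophagus was examined in CP-A, a cell line that had been grown with acid and deoxycholic acid (DCA). The genes were APC, ESR1, MGMT, RUNX3, TAC1, SST, NELL1, AKAP12, TFPI2 and TMEFF2, and all 10 were found by gene symbol among 17687 genes of the array annotation. Each of the 10 had 1 row in the table of expression values. For other genes with several rows, the row with the highest mean of both arrays was kept. CP-A is a line from non-dysplastic Barrett's epithelium, the columnar lining that replaces the squamous lining of the lower esophagus under reflux, and it was immortalized with human telomerase reverse transcriptase. 1 array (Clariom S human) held RNA of CP-A cells grown repeatedly in medium of pH 6.4 with DCA, a secondary bile acid, and 1 array held RNA of CP-A control cells grown without acid or DCA. Both cultures were of the same line, and each array goes by its sample label. The paper describes exposure to nocodazole before RNA extraction, to bring cells to mitosis. Its section on the arrays does not say whether their RNA came from cells treated in this way. With 1 array per condition there was no replicate, so the differences below have no error and no test.

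In Barrett's esophagus and the adenocarcinoma that can follow it, cytosines of CpG dinucleotides in some gene promoters become methylated, and the methylated promoters are usually silent. DNA methyltransferases place the mark, TET enzymes oxidize it, and genes marked this way have been studied as markers of progression. The 10 genes act at different places in the cell: APC and AKAP12 are scaffolds in the cytoplasm, ESR1 and RUNX3 are transcription factors, MGMT repairs DNA, TAC1 and SST encode secreted peptides, and NELL1, TFPI2 and TMEFF2 encode secreted or surface proteins. Expression was measured on these arrays, and DNA methylation was not analysed here.

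The promoters of 5 of the genes are shown because the genes are grouped by promoter methylation and CpG is the site of the mark. Each is a RefSeq sequence of build GRCh38.p14, which runs from 250 bases before the start of transcription to 50 bases after it, written 5′ to 3′ along the gene with every CpG in capitals. APC is at chr5:112737635-112737934 on the plus strand, AKAP12 at chr6:151341456-151341755 on the plus strand, ESR1 at chr6:151807432-151807731 on the plus strand, MGMT at chr10:129466991-129467290 on the plus strand and SST at chr3:187670345-187670644 on the minus strand. APC and AKAP12 are the pair with a clear signal on the arrays, ESR1 had the largest difference, MGMT had the most CpG and SST the fewest among the windows shown.
APC: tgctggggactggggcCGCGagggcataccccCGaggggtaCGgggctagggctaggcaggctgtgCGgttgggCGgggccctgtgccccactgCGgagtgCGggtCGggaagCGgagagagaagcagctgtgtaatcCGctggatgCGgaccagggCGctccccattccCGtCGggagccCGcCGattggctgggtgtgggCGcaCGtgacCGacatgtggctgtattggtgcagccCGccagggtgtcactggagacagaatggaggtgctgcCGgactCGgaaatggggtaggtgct
AKAP12: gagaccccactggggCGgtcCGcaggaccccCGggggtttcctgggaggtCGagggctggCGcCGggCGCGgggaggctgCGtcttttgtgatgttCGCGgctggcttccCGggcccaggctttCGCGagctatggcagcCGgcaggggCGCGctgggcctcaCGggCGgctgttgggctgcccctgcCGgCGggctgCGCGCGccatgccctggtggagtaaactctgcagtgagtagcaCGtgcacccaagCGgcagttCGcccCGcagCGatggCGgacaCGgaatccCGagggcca
ESR1: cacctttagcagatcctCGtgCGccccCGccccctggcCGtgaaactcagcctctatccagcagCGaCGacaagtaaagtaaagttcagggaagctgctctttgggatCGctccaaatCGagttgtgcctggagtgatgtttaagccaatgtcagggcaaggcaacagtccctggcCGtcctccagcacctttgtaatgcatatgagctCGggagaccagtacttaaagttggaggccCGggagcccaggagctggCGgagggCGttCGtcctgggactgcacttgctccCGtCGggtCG
MGMT: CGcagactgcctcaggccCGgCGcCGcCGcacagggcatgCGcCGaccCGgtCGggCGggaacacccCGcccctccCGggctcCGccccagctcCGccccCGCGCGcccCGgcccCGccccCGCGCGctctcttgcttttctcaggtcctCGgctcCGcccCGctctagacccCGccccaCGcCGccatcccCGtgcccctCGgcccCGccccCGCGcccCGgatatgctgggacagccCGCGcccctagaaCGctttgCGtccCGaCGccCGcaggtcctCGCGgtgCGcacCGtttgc
SST: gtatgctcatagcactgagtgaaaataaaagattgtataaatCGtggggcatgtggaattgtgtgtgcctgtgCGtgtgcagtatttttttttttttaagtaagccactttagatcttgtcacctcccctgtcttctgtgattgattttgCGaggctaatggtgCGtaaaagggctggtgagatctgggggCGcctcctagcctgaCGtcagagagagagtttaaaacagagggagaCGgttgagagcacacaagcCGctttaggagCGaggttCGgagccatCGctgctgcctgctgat

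These windows differed widely in CpG. The MGMT window held 45 CpG with 78.7% G and C, the AKAP12 window 32 CpG with 72.3%, the APC window 23 CpG with 68.0%, the ESR1 window 17 CpG with 58.3% and the SST window 11 CpG with 48.0%, against a median of 14 CpG over 35116 windows of 27305 genes. A window was called CpG-rich when its G and C made up at least 50% and its CpG reached at least 0.6 of the number that its C and G would give by chance. By this measure 9 of the 18 windows of these genes were CpG-rich, against 46.9% of all windows. Counted by gene, 8 of the 9 with a window had a CpG-rich one, against 9964 of 14250 measured genes with a window. SST was the exception. Its CpG reached 0.67 of the number expected by chance, and it fell short only in its share of G and C. The ratio of observed to expected CpG was 1.10 in TAC1 and 1.06 in MGMT, higher than in 97.6% and 95.8% of all windows, and 0.88 in RUNX3, 0.82 in TFPI2 and 0.68 in TMEFF2. APC, ESR1, RUNX3 and AKAP12 had several windows, and at least 1 window of each was not CpG-rich. For APC, AKAP12 and ESR1 the window with the most CpG was shown. The other APC window held 14 CpG. Expression was not assigned to single windows. ESR1 had 6 windows, of which the one shown was the only CpG-rich one.

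Short motifs differed too. The cAMP response element, TGACGTCA, which reads the same on both strands and was first described in the somatostatin promoter, was present in the SST window as tgaCGtca, in none of the other 17 windows of these genes, and in 1.85% of all windows. A GC box, GGGCGG on either strand, the core of the site that Sp1 binds, was present in 11 of the 18 windows of these genes and in 45.0% of all windows.

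Most of the 10 genes gave no more signal than genes that epithelial cells do not use. As a measure of background, 348 olfactory receptor genes, which serve smell in the nose, had a median log2 level of 3.74 on the pH 6.4 + DCA array and 3.71 on the control array, and 95% of them lay at or below 5.43 and 5.35 on those arrays. This range is called the olfactory range below. Of the 10 genes, 8 lay within it on both arrays, with levels of 3.46 to 4.73 on the pH 6.4 + DCA array and 3.23 to 4.21 on the control array. Only APC and AKAP12 of the 10 lay above it. Of all 17687 genes, 34.9% lay within the olfactory range on both arrays. Measured against the lower quartile of all transcript clusters, which was 4.45 on the pH 6.4 + DCA array and 4.43 on the control array, 7 of the genes were under it on both arrays. The probe sets of different genes differ in brightness, so the levels place each gene against background and do not rank the genes by RNA content.

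**Figure D1:**
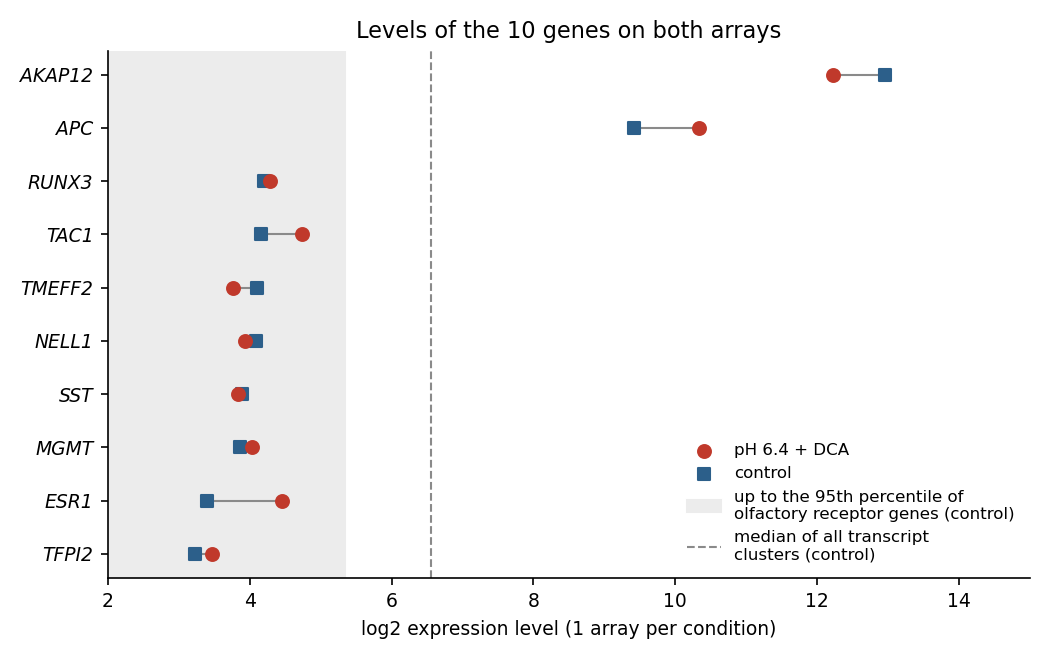
Log2 expression level (horizontal axis) of the 10 genes on the pH 6.4 + DCA array (circles) and the control array (squares), ordered by level on the control array. The olfactory range of the control array is shaded, and the median of all transcript clusters on the control array is dashed. Both marks of 8 genes sit inside the shaded range up to 5.35, and those of APC and AKAP12 lie to the right of the median of 6.55.

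Of the 10 genes, 1 was at least 2-fold higher after pH 6.4 + DCA, 0 were at least 2-fold lower and 9 were neither. The 1 was ESR1, whose levels were both within the olfactory range. Over all 20893 transcript clusters, the units of the array, 2.65% were at least 2-fold higher and 4.00% at least 2-fold lower. The share depended on signal: among clusters with a mean level under the lower quartile 1.32% were higher and 0.689% lower, among the others 3.09% were higher and 5.10% lower, and among olfactory receptor genes 2.01% were higher and 1.44% lower. The words higher and lower are used of genes only at 2-fold or more, and smaller differences are given as values. The differences of the 10 genes, as pH 6.4 + DCA minus control, ran from -0.73 to 1.06 on the log2 scale with a median of 0.13, against a median of 0.0066 over all transcript clusters. They were above 0 for 6 genes and below 0 for 4. In 7 genes the difference lay between -0.59 and 0.76, the 5th and 95th percentiles of the olfactory receptor genes. The exceptions were ESR1 and APC above and AKAP12 below. Over all transcript clusters, which include brighter ones, these percentiles were -0.91 and 0.81. AKAP12 lay between them, and ESR1 and APC lay above. Less RNA per cell and fewer cells that carry it cannot be told apart in RNA from a whole culture.

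**Figure D2:**
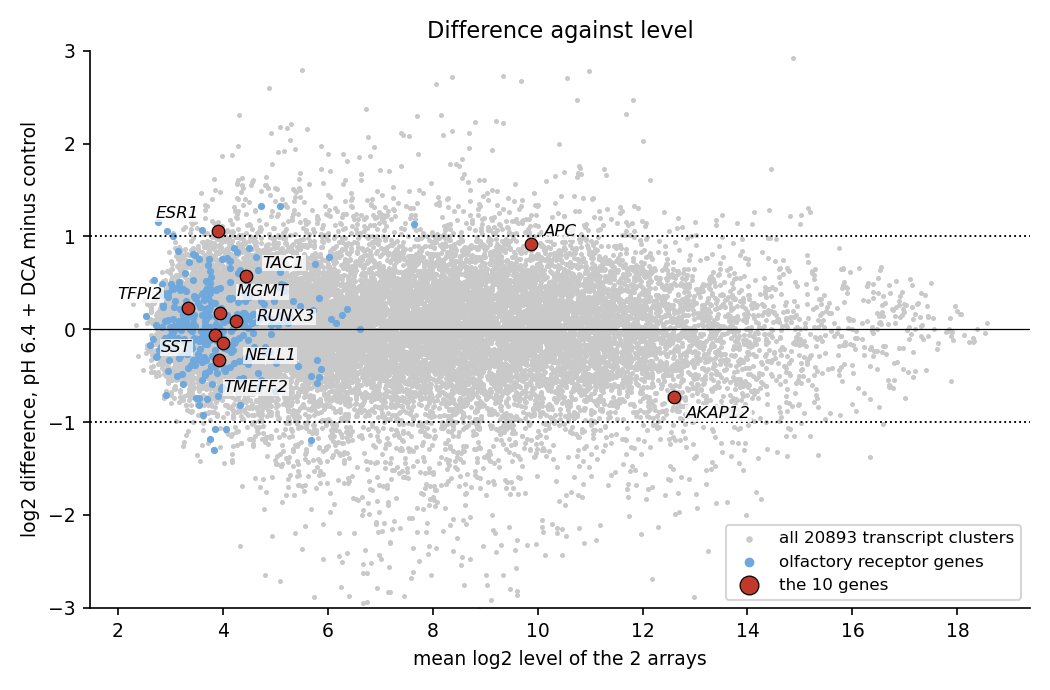
Log2 difference, pH 6.4 + DCA minus control (vertical axis), against the mean log2 level of both arrays (horizontal axis) for the 10 genes (large circles), olfactory receptor genes and all transcript clusters, with dotted lines at 2-fold and 64 clusters beyond the axis limit of 3 not drawn. Of the genes, 8 lie at the left among the olfactory receptor genes, APC lies just under the upper dotted line, and AKAP12 lies at the right above the lower one.

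APC, the scaffold of the complex that marks beta-catenin for degradation, had a log2 level of 10.34 on the pH 6.4 + DCA array and 9.42 on the control array. This was the 82.2 percentile of the transcript clusters on the pH 6.4 + DCA array and just above the upper quartile on the control array. The difference of 0.92, or 1.89-fold, was above that of 96.5% of transcript clusters and stayed below the 2-fold threshold. Among 12 other genes of beta-catenin turnover, 0 were higher and 0 lower, with a median difference of 0.20, and 11 of them had signal above the olfactory range on at least 1 array. The nearest to APC in size was the tankyrase gene TNKS, whose product targets axin for destruction, at 7.91 on the pH 6.4 + DCA array and 6.97 on the control array. CTNNB1, the beta-catenin gene itself, was at 12.48 and 12.82 on those arrays. Both were named after their values were seen. Of 12 measured target genes of beta-catenin, 0 were higher and 0 lower, with a median of 0.11, and 6 of them lay in the olfactory range.

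AKAP12, a scaffold that holds protein kinases A and C near the cell membrane, was far above the olfactory range on both arrays. Its log2 level was 12.23 on the pH 6.4 + DCA array and 12.96 on the control array, and 93.1% of transcript clusters had a lower level on the pH 6.4 + DCA array. The difference was -0.73, so that the level after pH 6.4 + DCA was 60.3% of the control level, and 7.84% of transcript clusters had a lower difference. Among 11 measured genes for other A-kinase anchors and subunits of protein kinase A, 0 were higher and 0 lower. Their median difference was 0.0027, with a range of -0.41 to 0.89.

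ESR1, the estrogen receptor alpha gene, had a log2 level of 4.45 on the pH 6.4 + DCA array and 3.39 on the control array. It was the only one of the 10 genes past 2-fold, at 2.08-fold. Its level lay just under the lower quartile of the pH 6.4 + DCA array and at the 6.67 percentile of the control array, and 5 of 348 olfactory receptor genes had a difference at least as large. After adding 32 to the linear values, which damps weak signals, the log2 difference of ESR1 was 0.34. Of 14 other measured genes for estrogen receptors, their coactivators and targets, NRIP1, a corepressor gene that the receptor induces, was higher at 10.35 on the pH 6.4 + DCA array and 9.03 on the control array. PDZK1, a scaffold gene that estrogen induces, was lower at 5.58 and 6.62. The other 12 were neither, and the median difference was 0.07. PGR and GREB1, both classical targets of the receptor and both named after their values were seen, were within the olfactory range, PGR at 3.35 on the pH 6.4 + DCA array and 3.34 on the control array, GREB1 at 2.80 and 2.81.

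RUNX3, a transcription factor that acts downstream of TGF-beta, had a log2 level of 4.29 on the pH 6.4 + DCA array and 4.21 on the control array, a difference of 0.09. Its relatives and partners were all above the olfactory range. RUNX1 was at 13.74 after pH 6.4 + DCA and 14.09 in the control, RUNX2 at 11.52 and 11.35, and CBFB, the shared subunit that steadies RUNX proteins on DNA, at 12.71 and 12.44. Of these and 4 more partners, 0 were higher and 0 lower. SMAD4, which carries the TGF-beta signal to the nucleus, had a difference of -0.61, and TLE1, a corepressor, one of 0.86.

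MGMT, which removes alkyl groups from guanine in DNA, had a log2 level of 4.03 on the pH 6.4 + DCA array and 3.86 on the control array, a difference of 0.17 or 1.13-fold. The 4 other genes of base repair and mismatch repair that were measured lay above the olfactory range. MSH6, of the mismatch recognition complex, was at 8.54 after pH 6.4 + DCA and 7.56 in the control, a difference of 0.99 just under 2-fold. PMS2, of the complex that follows it, differed by 0.08, the demethylase ALKBH2 by -0.28 and the glycosylase MPG by -0.52.

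TAC1, the precursor of substance P and neurokinin A, had a log2 level of 4.73 on the pH 6.4 + DCA array and 4.16 on the control array, a difference of 0.58 or 1.49-fold. It was the only gene of the 8 in the olfactory range that lay above the lower quartile on an array. The receptors TACR1, TACR2 and TACR3 were in the olfactory range on both arrays, with differences of 0.08, 0.28 and 0.06, and so was TAC3, the neurokinin B gene, at 0.33. TAC4 was at 5.43 after pH 6.4 + DCA and 6.01 in the control. MME, the neprilysin gene, whose product degrades substance P, was at 8.70 and 7.80.

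SST, the precursor of somatostatin, had a log2 level of 3.83 on the pH 6.4 + DCA array and 3.89 on the control array, a difference of -0.06. Of its receptors, SSTR1, SSTR2, SSTR4 and SSTR5 were within the olfactory range on both arrays. SSTR3 lay above it, at 8.34 after pH 6.4 + DCA and 8.13 in the control. Of 6 measured markers of neuroendocrine cells, the usual source of somatostatin in the gut, 0 were higher and 0 lower. CHGA, CHGB, SYP and GHRL lay in the olfactory range, the gastrin gene GAST was above it at 7.59 on the pH 6.4 + DCA array and 7.04 on the control array, and INSM1, at 5.36 and 5.60, was above it on the control array alone.

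NELL1, a secreted protein that promotes bone formation, had a log2 level of 3.94 on the pH 6.4 + DCA array and 4.09 on the control array, a difference of -0.15. Its paralog NELL2 was also within the olfactory range, at 4.78 and 4.82, as were the receptor genes ROBO2 and ROBO3. THBS1, which encodes the related matrix protein thrombospondin, lay far above the olfactory range, at 15.99 and 15.88.

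TFPI2, an inhibitor of serine proteases in the extracellular matrix, had a log2 level of 3.46 on the pH 6.4 + DCA array and 3.23 on the control array, a difference of 0.23. TFPI, its paralog and the inhibitor of the tissue factor pathway, was higher at 11.62 after pH 6.4 + DCA and 9.93 in the control, or 3.22-fold. PLAU, which encodes urokinase, was lower at 11.16 and 12.98, and SPINT2, an inhibitor of hepatocyte growth factor activator, was lower at 11.33 and 12.51. Of the 10 genes in this list 1 was higher, 2 were lower and 7 were neither, with a median difference of -0.24.

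TMEFF2, a membrane protein with follistatin and EGF-like domains, had a log2 level of 3.77 on the pH 6.4 + DCA array and 4.10 on the control array, a difference of -0.34, or 79.3% of the control level. TMEFF1, its paralog, lay above the olfactory range at 7.31 after pH 6.4 + DCA and 6.42 in the control. CRIPTO, EREG and ERBB4, which encode other proteins of the EGF and EGF receptor families, differed by -0.47, -0.01 and 0.44, and none of the 4 was higher or lower.

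A further 25 genes that have been described as methylated in Barrett's esophagus were measured alongside. None was higher, 2 were lower and 23 were neither, with a median difference of -0.08. Of the 25, 16 lay in the olfactory range on both arrays, against 34.9% of all genes. The lower ones were GPX3, a secreted glutathione peroxidase, at 13.90 on the pH 6.4 + DCA array and 15.22 on the control array, and GSTM2, a glutathione transferase, at 6.79 and 7.95. CDH1, the E-cadherin gene, was at 12.15 and 13.00. CDKN2A, the p16 gene, was within the olfactory range at 3.12 and 3.16.

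Of 10 measured genes for proteins that write, read or remove DNA methylation, or for their partners, 8 lay above the olfactory range on at least 1 array. None of the 10 was higher or lower. The differences ran from -0.85 to 0.84 with a median of -0.19. The maintenance methyltransferase DNMT1 was at 7.35 after pH 6.4 + DCA and 7.40 in the control, and the de novo methyltransferase DNMT3A was at 7.51 and 6.68. DNMT3B was within the olfactory range at 3.37 and 4.01. The dioxygenase TET2 was at 7.59 and 8.30. These 4 were named after their values were seen.

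**Figure D3:**
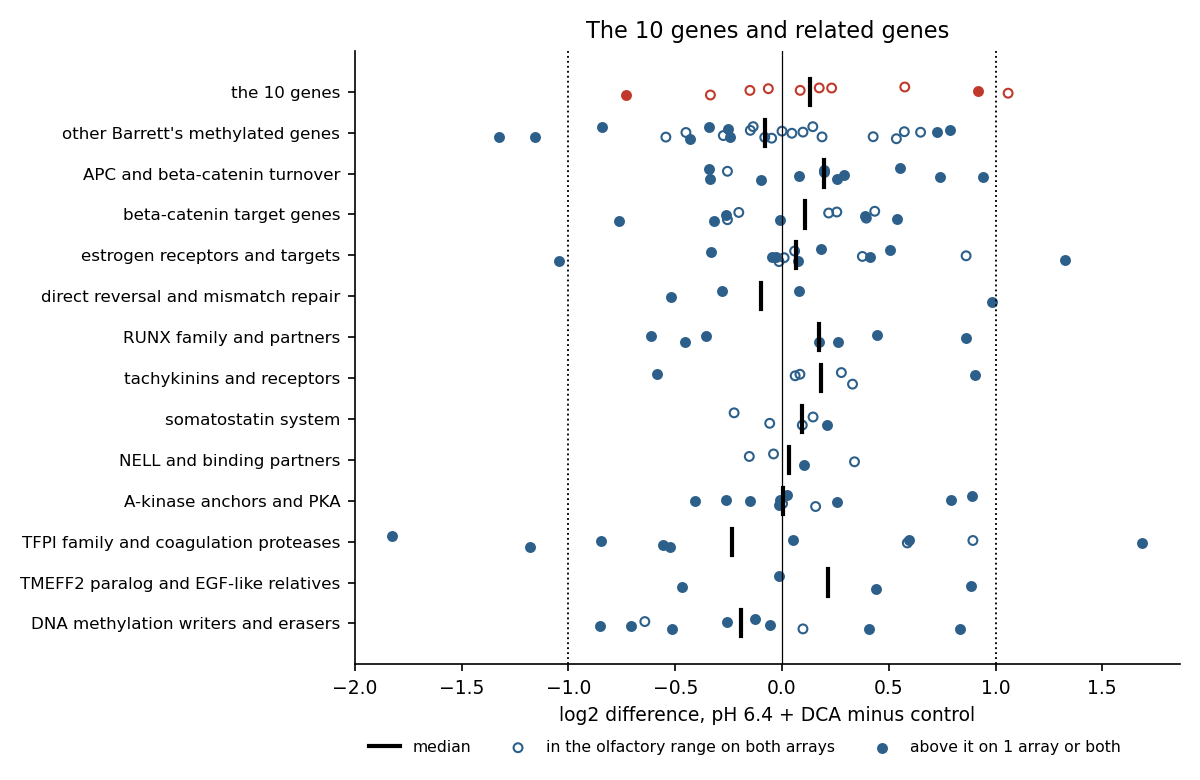
Log2 difference, pH 6.4 + DCA minus control (horizontal axis), of the 10 genes and of each list of related genes (rows), with open circles for genes in the olfactory range on both arrays, filled circles for genes above it on 1 array or both, bars at the medians and dotted lines at 2-fold. The list medians lie between -0.24 and 0.22, and TFPI and PLAU mark the right and left ends of the coagulation row at 1.69 and -1.83.

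The low signal of the 8 genes was set against that of other genes with a CpG-rich promoter. Of 9964 measured genes with a CpG-rich window, 20.9% lay in the olfactory range on both arrays, with median log2 levels of 8.18 after pH 6.4 + DCA and 8.24 in the control. Of 4286 genes without one, 62.4% lay in it, with medians of 4.65 and 4.63. Among the 10 genes, 8 had a CpG-rich window and 6 of these, ESR1, MGMT, RUNX3, TAC1, TFPI2 and TMEFF2, lay in the olfactory range. The whole group of genes with a CpG-rich window and a level in the olfactory range numbered 2083. Their median difference was 0.03, with 5th and 95th percentiles of -0.58 and 0.67, and 23 of them were higher and 7 lower. ESR1 was 1 of the 23.

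**Figure D4:**
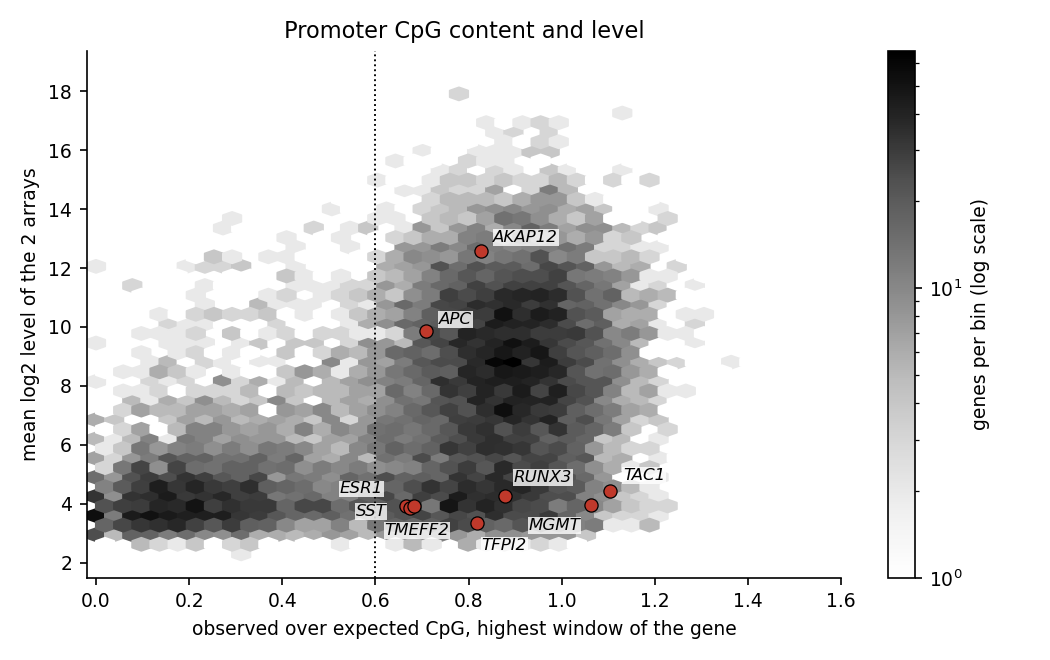
Mean log2 level of both arrays (vertical axis) against the ratio of observed to expected CpG in the gene's window with the highest ratio (horizontal axis), as gray bins of measured genes on a log scale of gene number, with 9 of the genes as circles and a dotted line at a ratio of 0.6. APC and AKAP12 lie in the dense field at high levels, and the other 7 lie along the bottom, right of the dotted line.

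The 10 genes lie on 8 chromosomes, and each was compared with the 10 measured genes on either side of it in RefSeq order. APC was on chromosome 5, where the median difference of 756 genes was 0.19. Its 20 neighbors had a median of 0.26, 15 of them were above 0, and 2 were higher, the glycoprotein processing gene MAN2A1 at 10.32 on the pH 6.4 + DCA array and 9.30 on the control array, and FEM1C, a substrate receptor of a ubiquitin ligase, at 9.84 and 8.72. The 13 neighbors above the olfactory range had a median of 0.49. SRP19, the nearest measured gene after APC and a subunit of the signal recognition particle, was at 10.95 and 10.85, a difference of 0.09.

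AKAP12 lay on chromosome 6, where the median difference of 925 genes was 0.0027. Its 20 neighbors had a median of -0.55, with 1 higher, which was ESR1, and 5 lower. RAET1G was at 5.75 on the pH 6.4 + DCA array and 7.56 on the control array, RAET1L at 7.17 and 8.71, and ULBP3 at 6.29 and 7.97. These are among 6 neighbors of the ULBP and RAET1 family, which encode ligands of the NKG2D receptor of natural killer cells and resemble each other in sequence, so probes may not separate them. The 6 had a median difference of -1.10, and the other 14 neighbors had one of -0.23. The other lower neighbors were PLEKHG1 at 6.54 and 7.77 and VIP, the vasoactive intestinal peptide gene, at 5.50 and 6.70.

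ESR1 and AKAP12 are close on chromosome 6, with 4 measured genes between them and 14 neighbors in common. The differences of the genes between were -0.93 in ZBTB2, -0.21 in RMND1, 0.11 in DCPH1 and 0.08 in CCDC170. The 20 neighbors of ESR1 had a median of -0.20, with 0 higher and 3 lower, while ESR1 itself had 1.06. TFPI2 and TAC1, both on chromosome 7 with 19 measured genes between them, had neighbors with medians of 0.30 and 0.01, against 0.18 for 799 genes of the chromosome. For the other 5 genes the neighbors' medians ran from -0.11 at RUNX3 to 0.14 at TMEFF2. The paper compared DNA of treated and untreated CP-A on copy number arrays. Its reported losses included chromosomes 5 and 7, and its gains included chromosomes 3 and 10. APC, TFPI2 and TAC1 lie on the first pair, and SST and MGMT on the second. Median differences over the genes of chromosomes 3 and 10 were 0.01 and 0.03. The parts of gene position and of copy number in these differences were not tested.

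**Figure D5:**
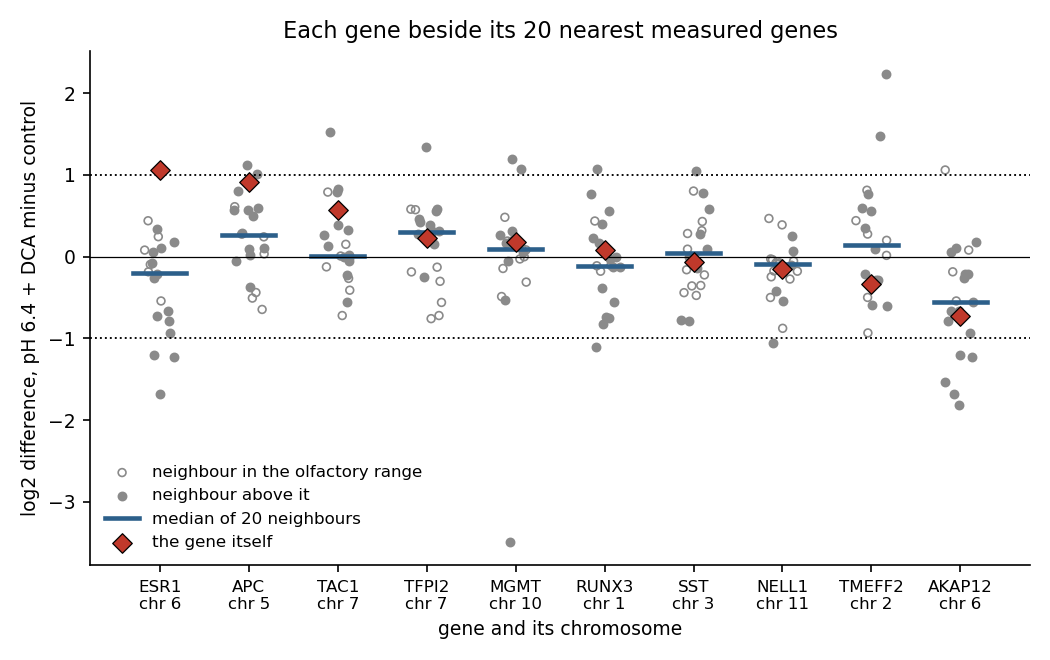
Log2 difference, pH 6.4 + DCA minus control (vertical axis), of each of the 10 genes (diamonds) and of its 20 nearest measured genes (circles, open where in the olfactory range on both arrays), with bars at the neighbors' medians and dotted lines at 2-fold. The medians are 0.26 at APC, -0.55 at AKAP12 and -0.20 at ESR1, whose diamond stands above all of its neighbors at 1.06.

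The epithelial identity of the cells was visible on both arrays. All 8 epithelial markers were above the olfactory range, at 10.61 to 16.45 on the pH 6.4 + DCA array and 11.34 to 17.08 on the control array, with a median difference of -0.78. KRT18, EPCAM and CLDN7 were lower, and the differences of all 8 were below 0. Of 9 columnar and intestinal markers, 7 lay in the olfactory range, none was higher or lower, and the list's median difference was 0.06. MUC2, the mucin of goblet cells, and CDX1, an intestinal transcription factor, were among the 7. CDX2, another such factor, and GATA4, a factor of gastric and intestinal epithelium, lay above the olfactory range, at 6.42 and 5.46 on the pH 6.4 + DCA array and 6.59 and 5.66 on the control array. These 4 were named after their values were seen. Of 6 squamous and basal markers, all 6 were above it on at least 1 array, 0 were higher and 2 lower, KRT14 with a difference of -2.88 and KRT13 with one of -1.01. KRT5, a basal keratin, was at 16.40 after pH 6.4 + DCA and 17.00 in the control. Of 8 stromal, endothelial and leukocyte markers, 5 were above the olfactory range on at least 1 array, 0 were higher and 0 lower. The brightest of them, CD68, was at 10.37 on the pH 6.4 + DCA array and 10.16 on the control array. It was named after its values were seen. Signal above the olfactory range was thus not limited to epithelial markers. The part of these shifts in the differences of the 10 genes was not tested.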

How the data were processed

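RNA of 1 CP-A culture exposed to pH 6.4 + DCA and 1 control culture was hybridized to Clariom S human arrays. The authors deposited log2 expression values from Transcriptome Analysis Console 4.0. No source used here gives the background correction, summarization, normalization or genome build. The range of the values shows the log2 scale. The values were used as deposited, for 20893 transcript clusters, and 555 unmapped rows were left out. Symbols came from the platform annotation, which gave 17705 of these rows 1 symbol. Gene order and promoter sequences came from RefSeq tables of GRCh38.p14.

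Differences are pH 6.4 + DCA minus control, with the 2-fold threshold of the methods. A gene is in the olfactory range when it lies at or below the 95th percentile of olfactory receptor genes on both arrays. The 10 genes, the lists and the tests were chosen with earlier results of these data known. Named genes are the 10, their nearest neighbors and neighbors at 2-fold or more, any gene of a list of 7 or fewer, in longer lists up to 5 genes at 2-fold or more, and CDKN2A and CDH1. Others are said to be named after their values were seen. Array number limits the precision, and 1 array per condition allows no test. Alternatives were median centring, quantile normalization, removal of a lowess trend (span 0.3), 32 added before log2, the mean of a gene's rows, thresholds of 1.5-fold and 3-fold, and a filter on level. Python 3.11.15, numpy 2.4.6, pandas 2.3.3, statsmodels 0.14.6 and matplotlib 3.10.9 were used. The 2-fold call was tested on simulated data with less noise than the olfactory receptor genes showed, and the CpG ratio on a known sequence. The other steps were not tested in this way.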

Additional observations from a re-analysis of the deposited data

How the results depend on the processing

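When 32 was added to the linear values before log2, 0 of the 10 genes were at least 2-fold higher, since ESR1 had 0.34, and their median difference was 0.044 in place of 0.13. With a threshold of 1.5-fold, 2 of the genes were higher, ESR1 and APC, and 1 was lower, AKAP12. With a threshold of 3-fold, 0 were higher. Among the 3 genes whose brighter array lay at or above its lower quartile, APC, AKAP12 and TAC1, 0 were higher and the median was 0.58. Under centring, quantile normalization and removal of the lowess trend the counts stayed at 1 higher and 0 lower. Differences of single genes under alternatives numbered 50. Of these, 49 stayed on their side of 2-fold and moved by less than 0.41, the SD of the differences of olfactory receptor genes. The 50 include the mean of a gene's rows, which could not move a difference because each of the 10 genes had 1 row. They also include centring, which moves all genes by the same amount. Of the related genes, the count of lower ones among estrogen receptors and targets was 0 with centring or 32 added, and that among other methylated genes was 1 with 32 added. Over all transcript clusters, 284 were higher and 554 lower with 32 added, 2269 and 2397 at 1.5-fold, and 106 and 283 at 3-fold, against 553 and 835. The median of APC's neighbors was 0.10 and that of AKAP12's neighbors -0.31 with 32 added, and AKAP12's neighbors without the ULBP and RAET1 genes, an alternative chosen after seeing the data, had -0.23. No paired analysis was possible because each condition had 1 array, and no replicate could be left out. For the 8 genes in the olfactory range, signal over background limits what can be said. ESR1 passed 2-fold with both of its levels in that range. In the other 7 no difference stood out from those of the olfactory receptor genes, which does not show that none was present.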

Other observations

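Some of the genes next to the 10 genes on the chromosome, taken by position, differed by far more than they did. The genes compared here, MGMT, TMEFF2, RUNX3, SST, NELL1, TAC1 and TFPI2, were all in the olfactory range on both arrays. Their values therefore do not show that they stayed unchanged while their neighbors differed. MKI67, which encodes the Ki-67 protein of proliferating cells and is the nearest measured gene before MGMT, had a log2 level of 6.51 on the pH 6.4 + DCA array and 9.998 on the control array, a difference of -3.48, while MGMT differed by 0.17 and EBF3, on its other side, by 0.11. SLC39A10, a zinc transporter gene beside TMEFF2, was at 10.68 after pH 6.4 + DCA and 9.21 in the control, a difference of 1.47, while TMEFF2 differed by -0.34. RUNX3, at 0.09, lay between CLIC4, a chloride channel family gene that was lower with a difference of -1.10, and SYF2, a splicing factor gene that was higher with one of 1.07. The genes directly beside SST, NELL1 and TAC1 differed by 0.33 or less in size. Among the 10 measured genes on either side, BCL6 near SST differed by 1.05, ZDHHC13 near NELL1 by -1.05 and PDK4 near TAC1 by 1.52. STAT4 near TMEFF2 differed by 2.23, and FANK1 and PTPRE near MGMT differed by 1.07 and 1.20. GNG11, a G protein subunit gene near TFPI2, was at 8.80 after pH 6.4 + DCA and 7.46 in the control, while TFPI2 differed by 0.23.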
